A study of Mus musculus with 4 samples.

Results

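The miRNAs numbered miR-680 to miR-721 were measured in Sertoli cell RNA of mice in which androgen signalling had been suppressed or restored. A member was any mouse miRNA on the array whose name carries a number in that range, with any letter or arm suffix and without the star forms. There were 42 members among the 567 mouse miRNAs of the array. The array had no probe for number 716, and 2 star forms (miR-708* and miR-712*) fell outside the rule. The numbers give the order in which the names were assigned, so the set is not defined by a sequence family or a locus. miR-693-3p and miR-693-5p come from the same gene, Mir693.

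The mice were B6129 males 5 to 7 weeks old. Sham mice received the implant and saline vehicle. Flut+Acy mice received flutamide, an androgen receptor antagonist, from a Silastic tube under the skin and acyline, a GnRH antagonist, at 20 mg/kg by intraperitoneal injection. Flut+Acy+T mice received testosterone in addition to both drugs. The labels call these arrays control, flutamide and testosterone and do not name acyline, which is given by the study's methods. Sham and Flut+Acy+T had 1 array each, and Flut+Acy had 2. The labels give pools of 5 to 7 mice, and the legend to the array experiment gives 6 for each group. Neither says whether the 2 Flut+Acy arrays came from 1 pool or from separate pools, so p-values measure only the spread between these 2 arrays, which may be technical.

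miRNAs are short RNAs that guide Argonaute proteins to messenger RNAs, mainly through the seed at bases 2 to 8, and lower their translation or stability. Sertoli cells nurse the developing germ cells and are the cells through which testosterone supports spermatogenesis. Many names in this range came from early cloning and tag sequencing of mouse small RNAs, and several have since been questioned as products of other RNAs. miR-720, for example, matches a fragment of a threonine tRNA, and miR-712 lies in a spacer of the ribosomal RNA precursor. Others are accepted miRNAs, such as miR-708, which belongs to the miR-28 family.

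Of the 42 members, 26 were found by exact name in RefSeq (GRCm38.p6), and these 26 had 26 distinct seeds. Another 5 (miR-698, miR-700, miR-701, miR-702 and miR-708) are listed there only with an arm, which the array name does not give. The following 11 were not matched: miR-684, miR-685, miR-689, miR-694, miR-696, miR-699, miR-709, miR-712, miR-714, miR-715 and miR-720. The mature sequences below are those of the matched members that were detected on all 4 arrays (miR-690 and miR-721) or differed from Sham by at least 2-fold on each Flut+Acy array (miR-697, miR-703, miR-710 and miR-711). miR-705 and miR-680 were added after their values were seen, because they were the most abundant of the other members and had contrasting ranks. Capitals mark the seed.
miR-690: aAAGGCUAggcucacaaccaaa
miR-721: cAGUGCAAuuaaaagggggaa
miR-697: aACAUCCUgguccuguggaga
miR-703: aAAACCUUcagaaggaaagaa
miR-710: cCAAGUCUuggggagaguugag
miR-711: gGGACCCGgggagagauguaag
miR-705: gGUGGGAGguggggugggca
miR-680: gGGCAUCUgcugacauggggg

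In GRCm38.p6, miR-690 is at chr16:28599940-28599961 on the minus strand, within the span of Fgf12. miR-721 is at chr5:136375777-136375797 on the minus strand, within Cux1. miR-697 is at chr4:124731768-124731788 on the plus strand, within Sf3a3, and miR-711 is at chr9:108969970-108969991 on the plus strand, within Col7a1. miR-703 is at chr5:98475616-98475636 on the minus strand, within Cfap299, and miR-705 is at chr6:85336341-85336360 on the minus strand, within Rab11fip5. miR-710, at chr8:64514401-64514422 on the minus strand, lies in no other listed gene, and miR-680 has 3 copies, on chromosomes 6, 12 and X. The gene table used gives spans without exons or strand, so intron, exon and orientation were not assigned. By the same table, 20 of the 26 matched members and 9 of the 12 that were detected lie within a protein-coding gene.

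The bases of these sequences differed widely. miR-705 was 70% G and held a run of 4 G, and miR-680 and miR-721 each held a run of 5 G. Over the 12 detected members with a sequence the median G content was 31.0%, against 23.8% in the 14 undetected ones and 23.8% in 113 other mouse miRNAs of the array matched by name. The GC medians were closer together, at 52.4%, 50% and 50%. The seed of miR-721, AGUGCAA, is shared with miR-130a-3p, miR-130b-3p, miR-130c, miR-301a-3p, miR-6341 and miR-6389, and that of miR-705 with miR-6922-5p, miR-6993-5p and miR-7008-5p.

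The arrays differed in quality. Signals summed to 57940 intensity units on Sham, to 139602 and 161460 in the Flut+Acy pair and to 201919 on Flut+Acy+T. Negative control spots had an SD between 2.72 and 7.45 units on the first 3 of these arrays and of 1326 on the last, which also had 535 nonuniform spots against 0 to 4. The lowest signal called detected was 238 units on Flut+Acy+T and between 0.766 and 2.67 on the other 3 arrays, so low members could not be measured there. The defining miR-202 arms of gonadal somatic cells were detected on Sham (1 of 2) and on both Flut+Acy arrays (2 of 2) but not on Flut+Acy+T. The 6 germ cell miRNAs (the miR-34b, miR-34c and miR-449 group) held 0.820% of the summed signal on Sham, 5.10% and 4.57% in the Flut+Acy pair and 1.72% with testosterone. The study lists miR-34b-5p, miR-34c and miR-449a of this group among the altered miRNAs of its purified Sertoli cells. Whether the rise reflects germ cells or Sertoli cells was not tested. Muscle and peritubular miRNAs held 3.08%, then 1.85% and 1.92%, then 2.26% in the same order, blood miRNAs 0.408%, 0.273%, 0.268% and 0.451%, and endothelial miR-126 arms 1.12%, 1.42%, 1.33% and 1.99%. Flut+Acy+T detected 0 of the 6 blood miRNAs, 1 of the 2 miR-126 arms, and 3 of 6 in each of the muscle and germ cell lists. Its shares therefore include undetected signal, and its blood share is undetected signal only. The part of the shifts in share in the members' values was not tested. In RNA of pooled cells, fewer cells of a type and less RNA per cell cannot be told apart.

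Sham Sertoli cells carried a detected signal of 18 members (42.9%, against 34.0% of all 567 mouse miRNAs). The Flut+Acy arrays detected 21 and 20 members, where the shares of all miRNAs were 48.5% and 47.6%. Flut+Acy+T detected 6, against 18.0% of all miRNAs. In all, 21 of 42 members were detected on at least 1 array (52.6% of all miRNAs) and 6 on all 4 arrays (13.4%), namely miR-689, miR-690, miR-709, miR-714, miR-720 and miR-721. miR-682, miR-702 and miR-715 were detected on both Flut+Acy arrays and not on Sham, a pattern of 13.1% of all miRNAs.

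The other 21 members were detected on none of the arrays. They were miR-683, miR-684, miR-686, miR-687, miR-688, miR-692, miR-693-3p, miR-693-5p, miR-694, miR-695, miR-698, miR-699, miR-700, miR-701, miR-704, miR-707, miR-708, miR-713, miR-717, miR-718 and miR-719. Their total signals ran from -5.36 to 2.59 units on Sham. On the Flut+Acy pair they ran from -6.32 to 4.37 and from -7.30 to 6.37, and on Flut+Acy+T from -235 to 236. Between 15 and 19 of the 21 were below 0 on each array. miR-687, known for its induction in the ischaemic kidney, was the lowest of them on both Flut+Acy arrays, and miR-708 was the highest on Sham.

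**Figure D1:**
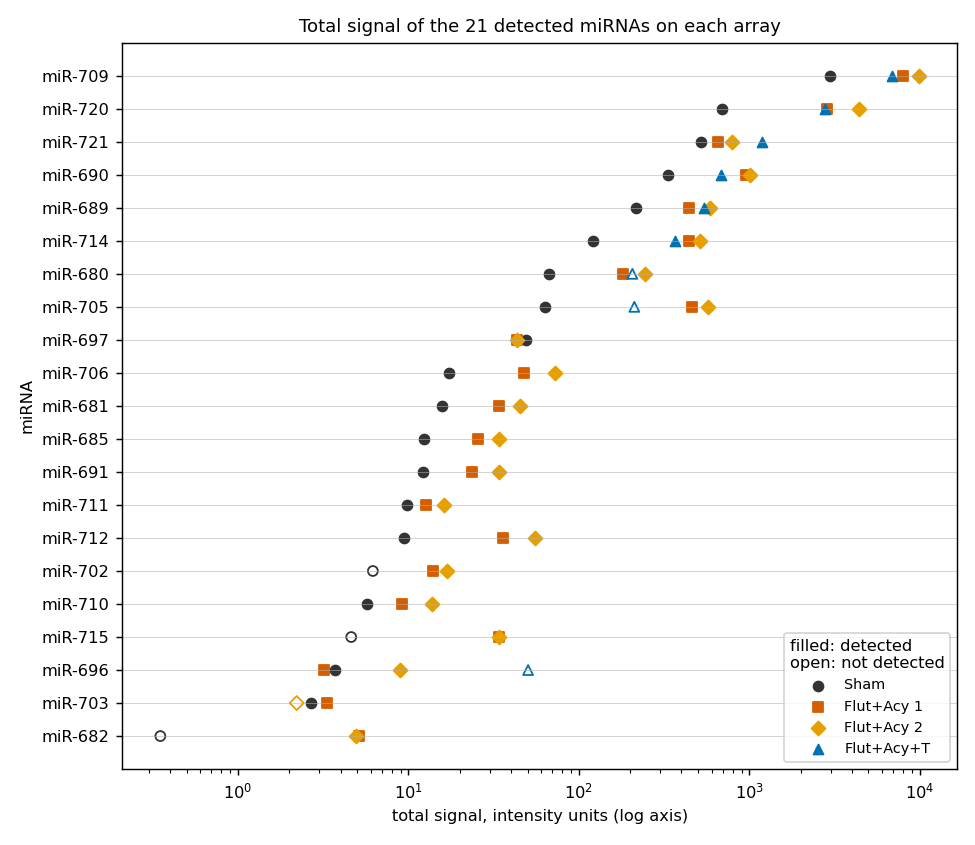
Total signal (intensity units, log axis) of the 21 detected members on Sham (circles), both Flut+Acy arrays (squares and diamonds) and Flut+Acy+T (triangles); filled symbols were detected, open ones were not, and values at or below 0 are not drawn. miR-709 and miR-720 lie at the top on every array, and no member from miR-680 down was detected on Flut+Acy+T.

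The members' signal was concentrated in a few names. miR-709, an abundant mouse miRNA with a reported nuclear role, had a total signal of 2981 units on Sham, 7976 and 9956 in the Flut+Acy pair and 6848 with testosterone. It ranked 3rd of 567 on Sham, 2nd on both Flut+Acy arrays and 4th on Flut+Acy+T, so it stood near the top in every condition. Total signals are not corrected for probe differences, so these ranks order the signals and not the amounts of RNA. miR-720 read 689 units on Sham, 2864 and 4396 in the Flut+Acy pair and 2761 with testosterone, so Sham was the lowest. Together the 42 members made up 8.89% of the summed signal on Sham, 10.2% and 11.4% in the Flut+Acy pair and 6.59% with testosterone. miR-709 alone was 57.9% of the members' signal on Sham, 55.9% and 53.9% in the Flut+Acy pair and 51.5% with testosterone.

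A middle group followed. miR-721 read 522 units on Sham, 654 and 796 in the Flut+Acy pair and 1182 with testosterone. It was the only one of the 6 members detected throughout whose Flut+Acy+T value was the highest of the 4 arrays. miR-690, known from macrophage exosomes, read 335 units on Sham, 951 and 1006 in the Flut+Acy pair and 680 with testosterone. miR-689 read 215, then 444 and 592, then 545 units in the same order, and miR-714 read 121, then 443 and 515, then 364 units. For all 3 the Sham array was the lowest and the Flut+Acy+T value lay below the higher of the Flut+Acy pair. miR-680 gave 66.4 units on Sham and 181 and 244 in the Flut+Acy pair, and its 206 units on Flut+Acy+T were not detected. miR-705 gave 63.3 units on Sham and 459 and 574 in the Flut+Acy pair, and its 212 units on Flut+Acy+T were not detected. These 2 members were level on Sham but apart on Flut+Acy, where miR-705 was the higher on both arrays.

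miR-697 went the other way, with 49.2 units on Sham, 43.6 and 43.5 in the Flut+Acy pair and -115 with testosterone, where it was not detected. It was the single detected member whose signal was below Sham on each Flut+Acy array. Among the dim members, none was detected on Flut+Acy+T. miR-706 read 17.3 units on Sham and 47.8 and 72.7 in the Flut+Acy pair, miR-681 read 15.8, 34.1 and 45.2, and miR-685 read 12.4, 25.5 and 34.0. miR-691 read 12.3, 23.7 and 33.9 units, and miR-712 read 9.45, 35.8 and 55.1. All 5 were higher on both Flut+Acy arrays before normalization, as were nearly all miRNAs. Of those detected on Sham and on the Flut+Acy array, 5 of 190 and 3 of 191 had a ratio to Sham under 1.

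miR-711 read 9.83 units on Sham and 12.7 and 16.1 in the Flut+Acy pair, and miR-710 read 5.71, 9.21 and 13.9. miR-696, which targets PGC-1α in muscle, read 3.70 units on Sham and then 3.18 and 8.94, so the Flut+Acy pair lay on both sides of Sham. miR-703 read 2.67 units on Sham, 3.32 on the first Flut+Acy array and 2.21 on the second, where it was not detected. These 4 members lay within a few units of their Sham value on at least 1 Flut+Acy array. Of the members not detected on Sham, miR-715 read 4.62 units there and 34.1 and 33.9 on Flut+Acy, miR-702, processed as a mirtron, 6.19 units and then 14.0 and 16.7, and miR-682 0.351 units and then 5.13 and 4.93.

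The first comparison asked which members changed when androgen signalling was suppressed. Before normalization the ratio of Flut+Acy to Sham had a median of 2.67 over the 190 miRNAs detected on both Sham and the first Flut+Acy array, and of 3.15 over 191 for the second. The members had medians of 2.11 (18 members) and 2.86 (17 members). The highest member ratio was that of miR-705, at 7.25 and 9.06, and 36 and 32 of all miRNAs lay above it. The lowest were miR-696 at 0.859 on the first array and miR-697 at 0.884 on the second, and 1 miRNA of all lay below each. The members' median rise was thus below that of all miRNAs on both arrays, but only 10 of 18 and 10 of 17 members lay under the median of all.

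Position within the array does not depend on a scaling factor between arrays. Of the 17 members that Sham and the Flut+Acy pair all detected, 13 ranked further down on each array of that pair than on Sham, and 63.0% of 189 miRNAs did so. The 3 that ranked further up on both were miR-705, miR-709 and miR-720, against 30.7% of the 189. miR-705 moved from rank 81 on Sham to 63 and 64 on Flut+Acy, and miR-720 from 21 to 11 and 8. miR-697 moved from rank 89 to 169 and 182, and miR-721 from 29 to 53 and 52. miR-680 moved from 79 to 94 and 92, which reversed its order with miR-705.

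**Figure D2:**
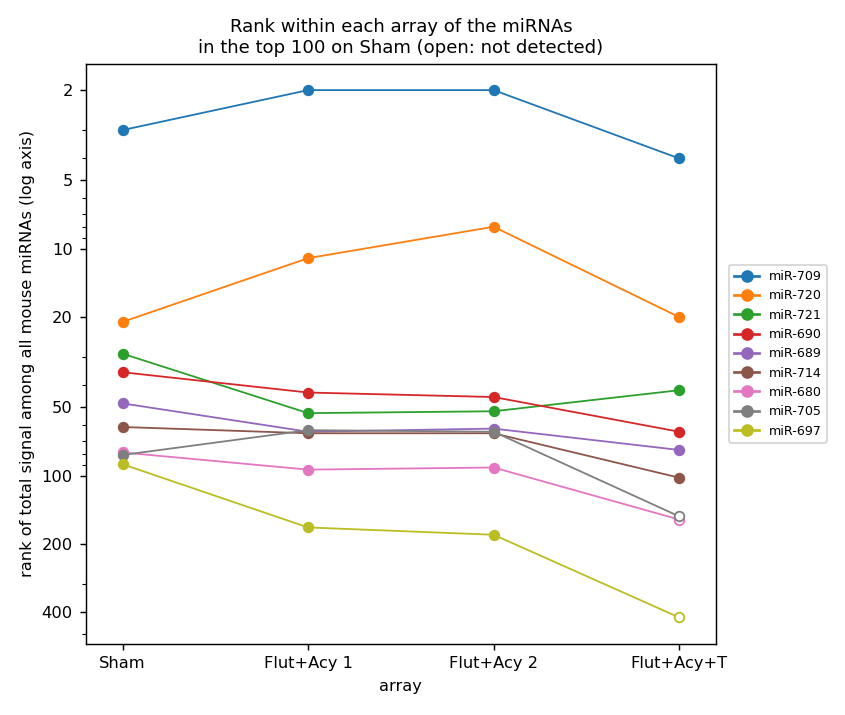
Rank of the total signal among 567 mouse miRNAs (log axis, rank 1 at the top) on each of the 4 arrays for the 9 members within the top 100 on Sham; open circles were not detected. miR-705 rises from 81 to 63 and 64 on Flut+Acy while miR-697 falls from 89 to 169 and 182.

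For the test, total signals were quantile-normalized over the 4 arrays, floored at 5.46 units and converted to log2. On this scale the Flut+Acy mean of 5 members lay 2-fold or more below Sham (16.6% of all 283 miRNAs detected in either group) and 0 were higher by as much (22.6%). The 5 were miR-696, miR-697, miR-703, miR-710 and miR-711, of which miR-696 and miR-703 were at or near the floor on Flut+Acy. Over the 17 members detected on every array of both groups, 4 were lower (18.5% of 189 miRNAs) and 0 higher (13.8%). Counted without a threshold, 16 of the 21 lay below Sham (55.8% of all 283) and 4 above it (41.3%). limma, with Benjamini-Hochberg adjustment over 298 miRNAs, called 9 of the 21 members, 2 higher and 7 lower, and it called 54.0% of all miRNAs (25.5% higher and 28.5% lower). With that background, the members' 9 calls are not a larger share than the array's. The median member difference was -0.66 and that of all 283 miRNAs -0.18, but the gap depended on which miRNAs were counted. Over those detected on every array of both groups it was -0.66 (17 members) against -0.37 (189 miRNAs), and over those detected on all 4 arrays -0.22 (6 members) against -0.30 (76 miRNAs), where the members lay higher.

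miR-697 had log2 normalized values of 7.94 on Sham and 6.14 and 5.92 on Flut+Acy, so both Flut+Acy arrays lay well below Sham. It fell by 1.90 on the log2 scale (standard error 0.16, limma adjusted p = 0.0424). miR-705 had values of 8.20 on Sham and 8.84 and 8.82 on Flut+Acy, both above Sham. It was higher by 0.63 (standard error 0.01, limma adjusted p = 0.0148). miR-685 fell by 0.87 (limma adjusted p = 0.0457). The differences of miR-689, -0.66 (limma adjusted p = 0.0451), and of miR-710, -1.37 (limma adjusted p = 0.0485), passed as well. These 3 calls were close to the threshold and each ended or turned under most alternatives, those of miR-685 and miR-710 under 6 of 10 and that of miR-689 under 7 of 11. The call of miR-697 ended under 2 of 10 and that of miR-705 under 1 of 10. The alternative floors left both differences unchanged, so they could hardly end these calls. The methods' analysis of variance with a Tukey comparison was not among the 10. After adjustment it called neither, nor any other of the 243 miRNAs it covered.

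The other 4 calls were of members with the same normalized value on both Flut+Acy arrays, because quantile normalization gives equal ranks, and the floor gives low signals, an equal value. Their standard error, 0.0069 on the log2 scale, came from the prior alone. They were miR-709 (12.61 on Sham and 12.91 on both Flut+Acy arrays, higher by 0.30, limma adjusted p = 0.0147), miR-714 (8.93 and 8.75, lower), miR-711 (6.21 and 4.52, lower) and miR-703 (4.56 and, at the floor, 2.45, lower). The limma adjusted p was 0.0215 for miR-714 and 0.0044 for each of miR-711 and miR-703. The call of miR-714 ended or turned under 5 of 11 alternatives, that of miR-709 under 3 of 11, that of miR-703 under 3 of 10 and that of miR-711 under 2 of 10. The Tukey comparison left out tied members, so it could not bear on these calls. miR-703 was detected on 1 of the 2 Flut+Acy arrays, and its raw Flut+Acy signals of 3.32 and 2.21 units were each within 1 unit of the 2.67 units on Sham.

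The remaining members did not pass limma's threshold. miR-720, the largest positive difference, was at 10.82 on Sham and 11.48 and 11.81 on Flut+Acy, a difference of 0.83 (standard error 0.24, limma adjusted p = 0.151). Both arrays lay above Sham, but they were also 0.33 apart. miR-721 was at 10.22 on Sham and 9.25 and 9.40 on Flut+Acy, a difference of -0.90 (standard error 0.11, limma adjusted p = 0.0580). miR-696 had the largest difference, -2.26, with a standard error of 0.43 (limma adjusted p = 0.0956). miR-715 was not detected on Sham, where it was at 5.22, and was at 5.78 and 5.60 on Flut+Acy. The difference was 0.47 (standard error 0.13, limma adjusted p = 0.148). Its Sham value lay above the lowest detected value there, 4.56, so no bound could be given. The differences of miR-680, miR-681, miR-690, miR-691, miR-702, miR-706 and miR-712 lay between -0.91 and -0.06, and miR-682 was at the floor on all arrays.

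**Figure D3:**
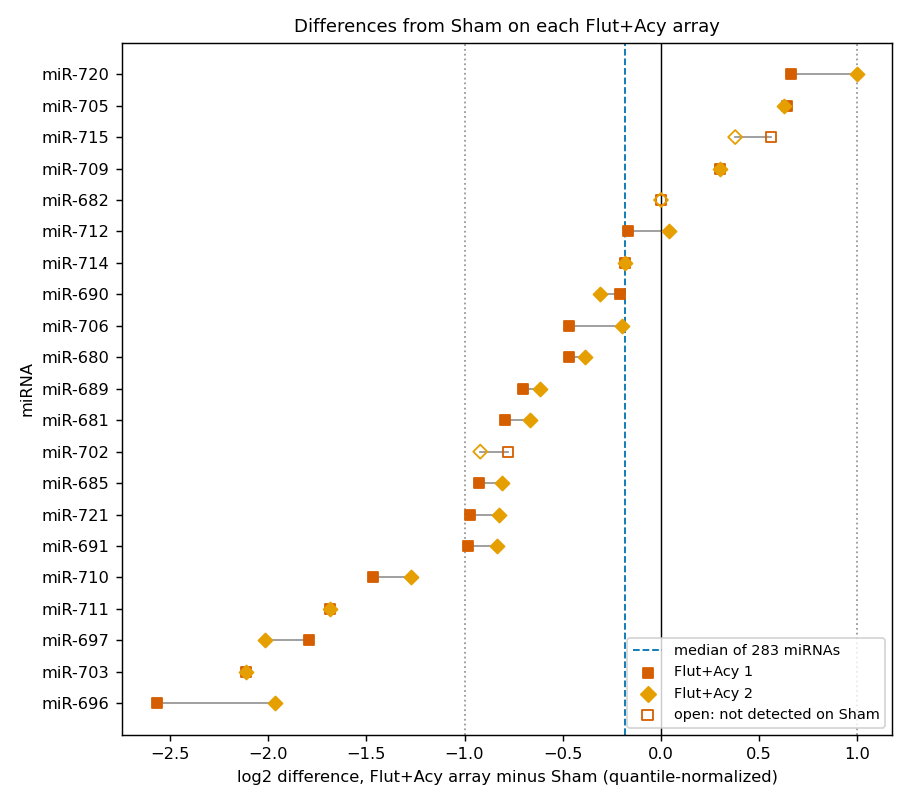
Log2 difference from Sham of the quantile-normalized signal on each Flut+Acy array (squares and diamonds, joined by a line) for the 21 detected members; dotted lines mark 2-fold, the dashed line is the median of all 283 miRNAs (-0.18), and open symbols were not detected on Sham. miR-696, miR-703, miR-697, miR-711 and miR-710 lie beyond 2-fold below Sham on both arrays, with miR-696 and miR-703 at or near the floor there.

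The sign of these differences depended on the scaling between arrays, while the order of the members depended on it less. The median of all 283 miRNAs was -0.18 after quantile normalization, 0.40 after scaling to the 75th percentile of the miRNAs detected on all 4 arrays, -0.34 after scaling to that of all mouse miRNAs, -0.05 in the authors' table and 1.75 with no normalization. Each member was therefore read relative to that median, under these 5 scalings and under processed spot signals and normexp correction. The percentile scalings and no normalization differ only by a constant per array, apart from the floor. Relative to the median they nearly repeat each other and are not separate support. miR-705 was above it under all 7, by 0.54 to 1.27, as were miR-720 (0.52 to 1.10) and miR-715 (0.23 to 1.13). Another 13 members were below it under all 7, among them miR-697 (-2.10 to -0.84), miR-721 (-1.38 to -0.71) and miR-689 (-0.59 to -0.46). How many of all miRNAs stayed on the same side under all 7 was not counted. The member counts are therefore no result about the set. miR-709 was above under 4 of 7 and below under the other 3, which are these near-repeats. It thus had no settled direction relative to the other miRNAs. miR-682, miR-706, miR-712 and miR-714 also fell on both sides.

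**Figure D4:**
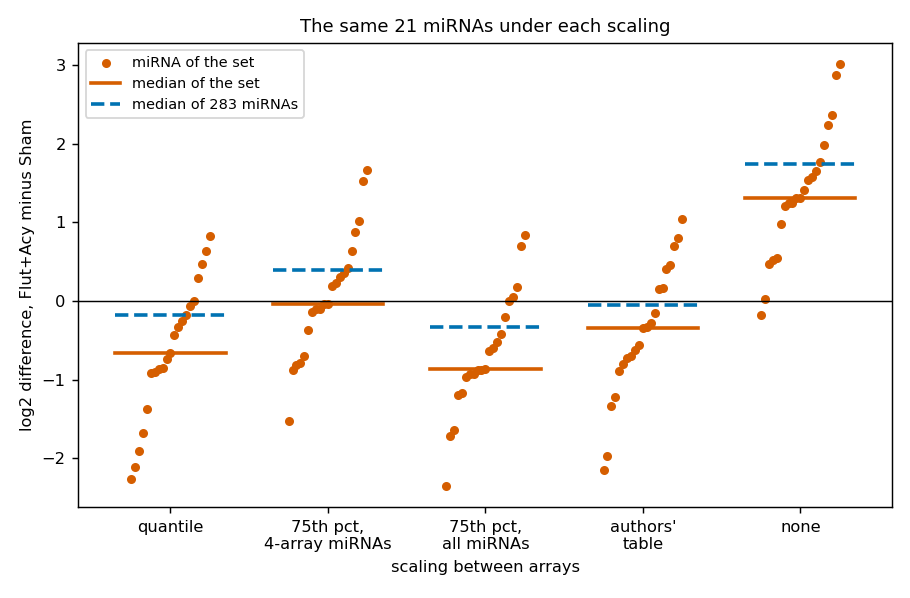
Log2 difference of Flut+Acy from Sham of the same 21 members (points, sorted within each column) under 5 scalings; solid bars are the members' median and dashed bars the median of all 283 miRNAs. Among miRNAs detected in either group, the members' median lies below that of all under each scaling, at -0.66 against -0.18 after quantile normalization and 1.32 against 1.75 with none.

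Several probes read each miRNA and overlap in sequence, so they are not replicates. For the 39 members with a listed position, each probe covered the stretch of the one before it and 1 base more, 10 to 21 bases in all. The 38 members with 4 probes included 14 detected on Sham (36.8%, against 14.0% of all 264 miRNAs with 4 probes). All 4 members with 2 probes (miR-689, miR-690, miR-709 and miR-720) were detected on all arrays, against 24.0% of the 287 miRNAs with 2 probes. In miR-721, miR-680, miR-697 and miR-705 the signal was spread over all 4 probes, and the top probe held 27.7%, 29.8%, 35.2% and 38.3% of the positive signal on Sham. In miR-706 and miR-696 the last probe held 85.7% and 95.2%, and in miR-685, miR-714 and miR-712 it held 65.3%, 64.5% and 54.5%. Among the members with 4 probes that an array detected, the last probe was the highest in 9 of 14 on Sham and in 10 of 17 and 9 of 16 in the Flut+Acy pair.

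**Figure D5:**
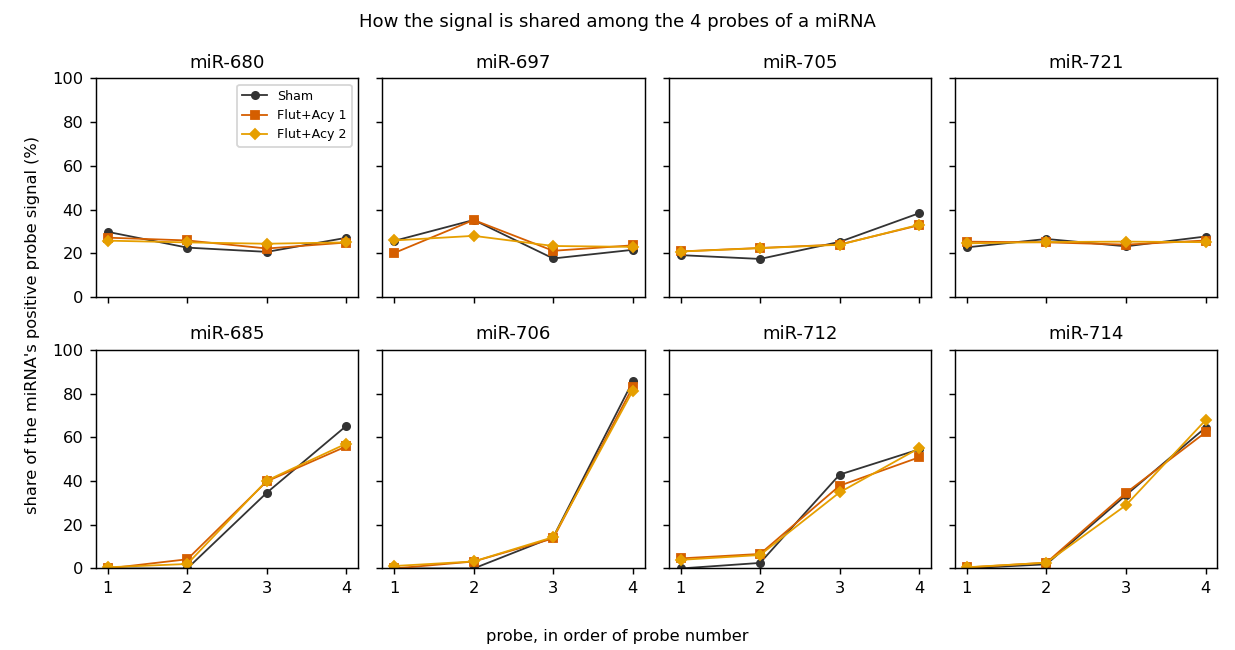
Share (%) of a miRNA's positive probe signal in each of its 4 probes, in the order of probe number, on Sham and both Flut+Acy arrays for 8 members. In the upper row miR-680 and miR-721 are nearly even. On Sham, miR-697 is highest at probe 2 (35.2%) and miR-705 at its last probe (38.3%). The lower row rises more steeply to the last probe, which holds 85.7% in miR-706 on Sham.

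The share of the probe that was highest on Sham moved by a median of 2.38 percentage points to the first Flut+Acy array (14 members, at most 10.01, in miR-710) and of 4.33 to the second (13 members, at most 14.0, in miR-691). The probes of the brighter members gave raw ratios of Flut+Acy to Sham within a narrow range, averaged over the pair on the log2 scale. All 4 probes of miR-705 gave log2 ratios between 2.80 and 3.38, and all 4 of miR-721 between 0.35 and 0.60. The 4 probes of miR-697 gave between -0.35 and 0.16, so their sign differed, but every one lay below every probe of miR-721 and miR-705. The spread was wider where some probes were near 0 on Sham. Over probes above 0 on all 3 arrays, those of miR-714 ran from 1.90 to 5.15, those of miR-712 from 1.99 to 3.56 and those of miR-691 from 0.90 to 2.22.

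miR-721 shares its seed with miRNAs that the array also carries under names without an arm. miR-130a read 617 units on Sham, 969 and 934 in the Flut+Acy pair and 1525 with testosterone, the same order of conditions as miR-721. Its difference on the normalized scale was -0.88 (standard error 0.19, limma adjusted p = 0.106), next to -0.90 for miR-721. miR-301a read 42.0 units on Sham and 152 and 161 in the Flut+Acy pair, a difference of -0.29. miR-130b was not detected on Sham and read 23.4 and 25.4 units on Flut+Acy. Its difference was 2.88, opposite in sign to the others, but its Sham value was at the floor. The members of this seed group therefore did not move as one, and whether probes of one name also bind another's RNA was not tested.

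The other comparisons asked whether testosterone returned the members to their Sham level. They share the Flut+Acy and Sham arrays with the first comparison, and Flut+Acy+T had 1 array with a high background. Against Flut+Acy, 13 members were at least 2-fold lower on Flut+Acy+T (50.8% of all 297 miRNAs detected in either group) and 1 was at least 2-fold higher (17.5%). Of these 14, only miR-714 was detected on Flut+Acy+T. Against Sham, 14 of 18 were at least 2-fold lower (44.5% of all 218) and 0 higher (17.9%), and 3 of the 14 were detected there. Without a threshold, 17 of 21 lay below Flut+Acy (64.6% of all 297) and 2 above it (31.6%), and 17 of 18 lay below Sham (68.8% of all 218) and 1 above it (28.9%). limma called 16 members in the first of these comparisons, all lower (75.2% of all miRNAs called, 53.7% lower and 21.5% higher), and 17 in the second, all lower (65.8% called, 48.3% lower and 17.4% higher). Flut+Acy+T detected 4 of the members called in each comparison, and the other 12 and 13 were set against a value below its detection limit. In the second, miR-702 and miR-715 were detected on neither array, so these counts describe detection as much as level and support no fall of the undetected members.

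For the members not detected on Flut+Acy+T only a bound can be given, and it was taken on the quantile-normalized scale. Before normalization the lowest detected signal on Flut+Acy+T, 238 units, lay above the Sham signals of miR-705 (63.3), miR-680 (66.4) and miR-697 (49.2). Raw signals therefore give no bound against Sham for these members. The raw Flut+Acy signals of miR-680, 181 and 244 units, lay on both sides of that limit. The adjusted p beside each bound is that of the fitted difference, which used the undetected value on Flut+Acy+T (at the floor for miR-697), and does not test the bound itself. The Flut+Acy level of miR-705 was at least 4.41-fold higher than that with testosterone (limma adjusted p = 0.0031), and its Sham level at least 2.84-fold higher (limma adjusted p = 0.0053). For miR-680 these bounds were at least 2.19-fold (limma adjusted p = 0.0141) and at least 2.94-fold (limma adjusted p = 0.0159). The Sham level of miR-697 was at least 2.37-fold higher than that with testosterone (limma adjusted p = 0.0139). No bound above 1 could be given for the other undetected members, miR-696, the single member counted as higher, included.

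The 6 members that Flut+Acy+T did detect were measured on all sides. Of these, 1 was at least 2-fold lower than Flut+Acy (13.3% of 83 miRNAs so measured) and 0 higher (21.7%), while 3 were at least 2-fold lower than Sham (7.79% of 77) and 0 higher (15.6%). miR-720 was at 10.84 on Flut+Acy+T, next to 10.82 on Sham and below both Flut+Acy values, a difference from Sham of 0.02 (standard error 0.28, limma adjusted p = 1). Its difference from Flut+Acy, -0.81, did not pass limma's threshold (adjusted p = 0.136). miR-721 was at 9.77, between the Flut+Acy pair and Sham, and neither difference passed (limma adjusted p = 0.103 against Flut+Acy and 0.141 against Sham). miR-690 was at 8.82, below both Flut+Acy arrays and Sham, with differences of -0.88 from Flut+Acy (limma adjusted p = 0.0287) and -1.14 from Sham (limma adjusted p = 0.0300).

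miR-714 was at 7.49, a difference of -1.26 from Flut+Acy and of -1.44 from Sham, and miR-689 was at 8.32, with differences of -0.54 and -1.20. miR-709 was at 12.35, with differences of -0.56 and -0.26. limma called all 3 in both comparisons, with adjusted p between 0.0028 and 0.0422, and the standard errors of miR-709 and miR-714 again rested on the prior. On the normalized scale, then, miR-720 lay at its Sham level, miR-721 lay between the groups, and the other 4 lay below Sham and Flut+Acy alike. Before normalization all 6 were above Sham, with ratios of 2.03 (miR-690) to 4.01 (miR-720) against a median of 3.81 over 77 miRNAs detected on both arrays. Of those 77 miRNAs, 0 had a ratio under 1, so lying above Sham was not particular to the members.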

How the data were processed

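Sertoli cell RNA was measured on 4 Agilent miRNA arrays of 1 slide, scanned together, with 1 colour. The authors deposited the scanner output of Agilent Feature Extraction 9.5.3.1 with intensity values on a linear scale (spot signals and a total signal per miRNA, not normalized between arrays, which can be below 0), and a table of intensities that they had quantile-normalized, whose way of combining spots is not stated. Coordinates in the deposited scanner files are those of mm9. The methods name another array type, while the files hold miRNA arrays.

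Control and viral probes were left out. The 567 mouse miRNAs' total signals were quantile-normalized, floored at 5.46 units (on each array the lowest signal of a detected miRNA was taken, and the floor is the median of the 4; on some arrays that lowest signal was below 0, and the median with only values above 0, 12.8 units, was an alternative added later) and converted to log2. Detection is the scanner software's flag. limma 3.58.1 in R 4.3.3 fitted 3 groups over 298 miRNAs, with 1 residual degree of freedom and a prior of 0.46 degrees of freedom and an SD of 0.01, so the lone arrays were taken to vary like the Flut+Acy pair. The fit was tested on simulated data with the same independent noise on every array. These data held no tied values and no noisier array, so the test does not bear on such calls. The number of arrays limits the precision. Every member detected on at least 1 array is named, with its value on every array where it was detected on Sham, on both Flut+Acy arrays or on Flut+Acy+T; undetected members are given as a range. The members, lists and rules were chosen with earlier results of these data known. There were 15 alternatives planned and 2 added after seeing the data.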

Additional observations from a re-analysis of the deposited data

How the results depend on the processing

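Member counts are given in the order higher and lower than 2-fold and called by limma. Apart from the Tukey comparison, shares of all miRNAs were counted only under the processing described above. Counts under the alternatives therefore show how the members' numbers depend on processing and are no result about the members. With no normalization the median Flut+Acy against Sham difference of all 283 miRNAs was 1.75, itself past 2-fold. For Flut+Acy against Sham (0, 5 and 9), scaling to the 75th percentile of miRNAs that all 4 arrays detected gave 3 and 1 past 2-fold, no normalization 15, 0 and 14, the authors' values 1 higher and 5 called, a floor of 1 unit 1 higher, normexp correction 0 lower, and the 6 members detected on all 4 arrays 0 lower and 3 called. For Flut+Acy+T against Flut+Acy (1, 13 and 16), normexp gave 0 and 1 past 2-fold, the 6 members 0, 1 and 3, no filter on detection 5 higher, and the floor from detected values above 0, chosen after seeing the data, 0 higher. For Flut+Acy+T against Sham (0, 14 and 17), scaling over miRNAs detected on all 4 arrays gave 1, 8 and 11, no normalization 9 and 8 past 2-fold, normexp 2 lower, the authors' values 1 higher, no filter 4 higher, and the 6 members 3 lower and 3 called. The methods' analysis of variance with a Tukey comparison covered the 243 miRNAs whose Flut+Acy values were not tied, 16 of them members. After Benjamini-Hochberg adjustment it called 0 members in each comparison, against limma's 9, 16 and 17, and 0 of all 243 miRNAs. At an unadjusted p under 0.05 it called 1, 7 and 7 members, and 62, 113 and 81 of all 243 miRNAs. Leaving out either Flut+Acy array left the counts past 2-fold at 0 and 5, 1 and 13, and 0 and 14; no test could then be made. Members detected on Sham were 13 to 20 under other detection rules, against 18.

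With no normalization, these Flut+Acy against Sham differences turned positive: miR-680 1.66, miR-681 1.32, miR-685 1.25, miR-689 1.25, miR-690 1.55, miR-691 1.21, miR-696 0.53, miR-702 1.31, miR-703 0.021, miR-706 1.76, miR-710 0.98, miR-711 0.54, miR-712 2.23, miR-714 1.98 and miR-721 0.47. Against Sham, Flut+Acy+T then read 1.34 for miR-689, 1.02 for miR-690, 1.20 for miR-709, 1.59 for miR-714 and 1.18 for miR-721, and against Flut+Acy 0.090 for miR-689. Scaling over miRNAs detected on all 4 arrays turned miR-680 (0.31), miR-690 (0.20), miR-706 (0.41), miR-712 (0.88) and miR-714 (0.63). Scaling over all mouse miRNAs turned miR-709 (-0.60) and miR-712 (0.054), and for Flut+Acy+T miR-721 against Flut+Acy (-0.92) and miR-720 against Sham (-1.81). The authors' table turned miR-706 (0.41), miR-714 (0.15) and miR-721 in Flut+Acy+T against Flut+Acy (-0.19). Leaving out each Flut+Acy array in turn put miR-712 between -0.17 and 0.042. Of the 9 members called in Flut+Acy against Sham, the adjusted p over the alternatives reached 0.736 for miR-685 and miR-689, 0.427 for miR-710, 0.442 for miR-697, 0.0905 for miR-705, 0.416 for miR-714, 0.311 for miR-709, 0.973 for miR-703 and 0.151 for miR-711. The causes were not tested. With the Flut+Acy+T array left out of normalization and fit, added after seeing the data, 7 members were at least 2-fold lower and limma called 10. In the authors' table the lowest detected values were below 0, so the floor there used values above 0. No paired analysis was possible because only Flut+Acy carries replicate numbers.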
